A study of Mus musculus with 46 samples.

Results

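P017 is the promoter fragment of Inhbb in the Tfcp2l1 library of a massively parallel reporter assay that measured short mouse DNA fragments alone and in pairs. Its start and end in the deposited table lie 450 bp apart, at chr1:119422173-119422623 (mm10). The fragment was chosen by its own readout, since the rule asked for a promoter that was nearly silent alone and responded strongly to some partners, with no numerical threshold. Its members are the 172 pairs with P017 in either place and on either strand, of 55979 pairs in the Tfcp2l1 library and 89293 rows in the whole Upstream table. In 78 of these pairs a candidate cis-regulatory element (cCRE) was placed before P017, in 69 P017 was placed before a cCRE, in 12 it stood before another promoter fragment and in 13 behind one.

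The cells were E14TG2a, an established mouse embryonic stem cell line kept undifferentiated with leukaemia inhibitory factor and 2 kinase inhibitors (2i). For each of 3 biological replicates, 16 × 1e6 cells received the plasmids by nucleofection and were harvested 24 h later. All replicates received the same plasmid pool, and there was no other treatment or genotype. Activity is the ratio of barcodes in reporter RNA (cDNA) to barcodes in the plasmid input (pDNA), so every value below is a linear ratio unless log2 is named. The library was transient plasmid DNA, which lacks the chromatin and the genomic distances of the locus.

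Inhbb encodes the beta B subunit shared by activin B and inhibin B, secreted dimers of the transforming growth factor beta family. Activins act through type II and type I receptor kinases that phosphorylate SMAD2 and SMAD3, and inhibins oppose them. A promoter holds the start site of transcription and often gives little output until an enhancer acts on it. The pairs therefore ask which cCREs of the locus raise a reporter when they stand next to this start site.

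The RefSeq gene model (GRCm38.p6) places Inhbb on the minus strand of chromosome 1, from 119415463 to 119422248. P017 thus overlapped the first 76 bases of the gene and reached 375 bases upstream of its start. The 300 bases from 250 before to 50 after the start lie wholly inside P017 and are shown because they are the core of the fragment under test. They are set beside the same windows of Ralb, the next protein-coding gene tested at higher coordinates, whose fragment was active alone, and of C1ql2, whose fragment was also weak alone. Each is written 5′ to 3′ on the gene's own strand, and capitals mark a match to any of the 10 motifs searched.
Inhbb, chr1:119422199-119422498, minus strand: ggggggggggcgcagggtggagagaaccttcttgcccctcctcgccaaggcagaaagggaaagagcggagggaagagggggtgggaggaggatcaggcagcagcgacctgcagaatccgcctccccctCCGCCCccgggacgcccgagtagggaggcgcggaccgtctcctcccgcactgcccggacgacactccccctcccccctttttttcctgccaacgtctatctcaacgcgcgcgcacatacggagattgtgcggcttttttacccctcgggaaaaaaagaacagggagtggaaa
Ralb, chr1:119504733-119505032, minus strand: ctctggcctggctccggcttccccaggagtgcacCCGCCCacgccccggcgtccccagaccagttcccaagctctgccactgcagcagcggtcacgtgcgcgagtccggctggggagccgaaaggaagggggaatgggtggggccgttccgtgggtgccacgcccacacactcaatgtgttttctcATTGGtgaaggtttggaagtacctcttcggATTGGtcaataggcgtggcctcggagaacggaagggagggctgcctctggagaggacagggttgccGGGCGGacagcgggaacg
C1ql2, chr1:120340332-120340631, plus strand: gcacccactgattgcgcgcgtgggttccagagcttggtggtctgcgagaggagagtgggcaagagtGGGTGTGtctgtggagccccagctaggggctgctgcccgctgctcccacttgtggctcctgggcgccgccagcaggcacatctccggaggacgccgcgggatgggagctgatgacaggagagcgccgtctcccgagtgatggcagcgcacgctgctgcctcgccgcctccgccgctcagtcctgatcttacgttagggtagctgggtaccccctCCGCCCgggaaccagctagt

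The Inhbb window was 64.3% G and C, against 65.3% for Ralb and 67.3% for C1ql2, and a median of 52.7% over 32851 RefSeq windows of the same length. It held 23 CpG dinucleotides, an observed to expected ratio of 0.741, where Ralb had 22 and C1ql2 23. Of the motifs searched on both strands, the Inhbb window matched only the GC box (GGGCGG), once, with the first base 122 bases before the start; 35.7% of all windows hold that motif. The Ralb window matched the GC box at 2 positions and CCAAT at 2 positions, 64 and 34 bases before the start, and 37.4% of all windows hold CCAAT. The C1ql2 window matched the GC box once and the KLF motif GGGTGTG once, the latter in 8.0% of all windows. The other motifs had no match in the Inhbb window: TATAAA (13.6% of all windows), the ESRRB motif AAGGTCA (4.72%), the octamer ATGCAAAT (1.74%), the STAT motif TTCCNGGAA (1.15%), the AP-1 motif TGACTCA (5.20%), the cyclic AMP response element TGACGTCA (1.79%) and the SOX motif CATTGTT (3.78%). A match describes letters in this window and is no evidence of binding.

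Alone, P017 was near the floor of the assay on both strands. On the plus strand its activity was 0.0138, 0.0376 and 0.0640 in replicates 1 to 3, and on the minus strand 0.0297, 0.0832 and 0.0816. The ranges of the strands overlapped, while the plus strand was the lower in 3 of 3 replicates. Their means of 0.0385 ± 0.0251 and 0.0648 ± 0.0305 (SD, n = 3) gave p = 0.30 in a two-sided exact permutation test, for which 0.10 is the smallest p possible with 3 values on each side. Paired by replicate, a comparison added after seeing the data, the two-sided exact permutation test gave p = 0.25, the smallest that 3 pairs allow. The vector with both places empty had 0.0460, 0.0658 and 0.0654, and the vector with its single place empty 0.161, 0.186 and 0.190. Both strands of P017 alone lay below the single empty vector in every replicate and spanned the level of the vector empty in both places. Among 47 promoter fragments and strands measured alone, P017 on the plus strand ranked 5 from the lowest and on the minus strand 15, and the replicates of each overlapped those of the next higher. These low levels on both strands are what the choice of the fragment fixed and are given as a description. The strand comparison uses the same values, so nothing is read from its p-values.

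**Figure D1:**
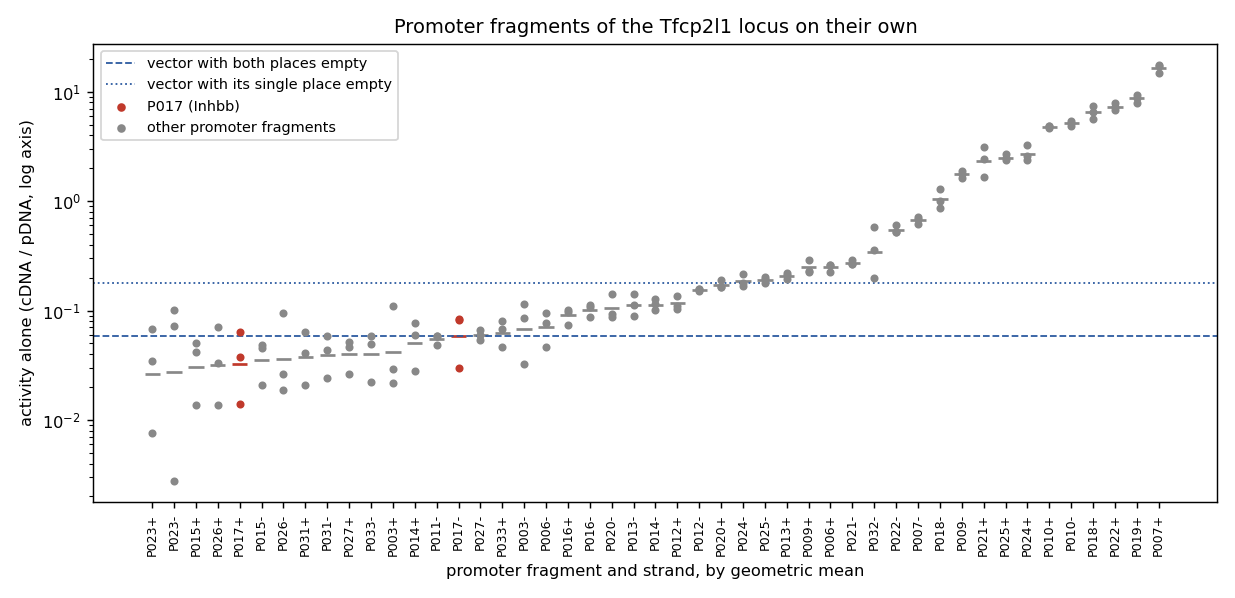
Activity of each promoter fragment and strand on its own in the Tfcp2l1 library (cDNA to pDNA ratio, log axis; points are the 3 replicates, short lines the geometric mean). P017 is in red at geometric means of 0.0322 (+) and 0.0586 (-), below the dotted line of the single empty vector at 0.179, while Ralb (P018+) stands at 6.52.

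What the strand sign means was not stated in the sources used here. Among fragments with 1 RefSeq start, both strands measured and an activity over 1 on either, the plus version was the higher in all 3, 1 of a plus-strand gene (Nifk, 16.4 against 0.668) and 2 of minus-strand genes (Ralb, 6.52 against 1.04; Tmem177, 2.71 against 0.187). Over all 8 fragments active on either strand with both measured, the plus version was the higher in 6 and the minus version in 2, P009 (1.76 against 0.247) and P010 (5.15 against 4.78), both overlapping Clasp1. In the following, a sign after a fragment is its strand in the table, and the fragment named first stood first.

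The cCREs placed before P017 gave activities over nearly the whole range of the assay. All 3 replicates were above 0 for 56 of the 78 pairs, which held 45 of 57 cCREs, and the geometric means ran from 0.0116 to 11.1 with a median of 0.0681. Only 6 pairs exceeded 1 and 13 exceeded 0.3. The remaining 22 pairs had a replicate at 0, and their highest single replicate was 0.166. Relative to P017 alone, the median difference over 45 cCREs was 0.83 ± 0.38 on the log2 scale (SD over 3 replicates). It leaves out the 22 pairs with a 0, which were low, and so is no median over all 78.

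The highest pair had E017, a cCRE overlapping the Tsn gene 1111 kb from P017. E017- before P017+ measured 11.4, 10.3 and 11.6. All 3 values lay above those of every other cCRE before P017. E060, a cCRE inside Tfcp2l1, the gene of a pluripotency transcription factor, followed, with 4.23, 4.63 and 3.74 for E060- before P017+. E166 lies between genes, 16.4 kb beyond the 3′ end of Inhbb and 23.5 kb from P017 by midpoints. E166+ before P017+ measured 3.15, 2.47 and 2.77, the highest of the cCREs within 100 kb. E294, between genes 12.6 kb from Marco, a scavenger receptor gene of macrophages, measured 3.40, 2.55 and 2.33 as E294+ before P017+. The replicates of E166 and E294 overlapped, while E017, E060 and E166 did not overlap with each other.

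A second tier lay near 1. E125- before P017+ measured 1.63, 1.29 and 1.51, E005- before P017+ 1.22, 0.856 and 0.947, and E185- before P017+, a cCRE inside Ralb, 1.35, 0.836 and 0.590. E188+ before P017+ measured 0.789, 0.760 and 0.994. By rank, E156+ before P017- lay between E125- and E005-, at a geometric mean of 1.03. From E125- to E185-, each pair in this ranking overlapped the next lower, while E125- and E005- did not overlap each other. By their means over the measured pairs, E144, E156, E249 and E244 came next, at 0.397, 0.367, 0.202 and 0.153. The mean of E156 joins its pair with P017- to E156+ and E156- before P017+, at 0.443 and 0.108. Over the ranked list of 56 pairs, 51 overlapped their next lower neighbour and 4 did not: those of E017, E060, E294 and E188 in the order above. The lowest 5 cCREs, E240, E208, E238, E215 and E051, had geometric means of 0.0156, 0.0141, 0.0138, 0.0128 and 0.0116, below both empty vectors.

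The spread between replicates was wider at low levels. For the 15 P017 pairs over 1, in any order, the median SD between replicates was 0.17 on the log2 scale, for the 23 pairs from 0.2 to 1 it was 0.44, and for the 79 pairs under 0.2 it was 1.02. Among these 79, replicates correlated at Pearson's r of 0.03 to 0.28 across pairs, so the order within the low group is not resolved. A replicate at 0 was found in 31.98% of P017 pairs and in 9.73% of all pairs in the library. Barcode and read numbers for each pair were not used here, so the depth behind a value is unknown and no counting interval is given. P017 pairs with a 0 numbered 42 in replicate 1, 14 in replicate 2 and 9 in replicate 3.

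In the fit of each pair against its promoter alone (limma, Benjamini-Hochberg adjusted p under 0.05 over 4945 pairs of all promoters), 16 of 56 P017 pairs were called higher (28.6%) and 1 lower, E268- before P017- (adjusted p = 0.075 with the replicate as a block, and not called without replicate 2 or without replicate 3). Over the library, 23.8% of pairs were called higher and 19.7% lower. Pairs with a 0 were left out, 22 of 78 for P017 against 9.54% of all cCRE-first pairs, so these shares have unlike bases. The contrast with the promoter alone was part of the choice of P017, so the counts describe it and nothing is read from them. The largest differences were 8.43 on the log2 scale for E017-, 7.02 for E060-, 6.43 for E166+, 6.40 for E294+ and 5.51 for E125-. All such differences share the same 3 values of P017 alone on that strand, which spread over an SD of 1.12 (plus) and 0.85 (minus) on the log2 scale. All 3 replicates exceeded the highest replicate of the vector empty in both places in 20 of 78 P017 pairs (25.6%), against 918 of 3049 pairs (30.1%) of other promoter fragments weaker alone than the single empty vector.

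Each cCRE was also measured without P017, and pairs of cCREs active alone were the higher ones. Across 56 pairs, the log2 activity before P017 correlated with the log2 activity of the cCRE alone at Pearson's r = 0.82 and Spearman's rho = 0.70. This is a description across cCREs of the same 3 replicates, some of which appear more than once. Of 21 promoter fragments with at least 20 such pairs, P017 ranked 4 by rho, below P023 (0.92), P027 (0.84) and P012 (0.71). P023 and P027 were also weak alone, at 0.0273 at most and 0.0601 at most, and had only 23 and 29 pairs. Other weak fragments ranked low, with rho of 0.48 for P015 (0.0357 at most alone) and 0.44 for P011 (0.0549). The active P019, at 8.67 alone, ranked above them with 0.59. The lowest rho was 0.16 for P007 of Nifk, the strongest fragment alone. These fragments were named after their values were seen.

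Most pairs stood below their cCRE alone. The pair was lower in 48 of 56 cases, with a median difference of -1.02 on the log2 scale, against 0.11 over 5053 pairs of the library. The library value mixes weak and active promoter fragments. Every other fragment under 0.3 alone on each measured strand also had a negative median, from -2.01 (P015) to -0.29 (P013). Fragments above that level had positive medians, up to 4.89 (P010). The fall is thus not particular to P017. E017- alone measured 31.3, 29.0 and 33.5, which is 2.82-fold above its pair with P017. E060- alone measured 7.57, 7.54 and 6.92, or 1.75-fold above its pair. E166+ alone, at 3.14, 3.00 and 3.31, overlapped its pair, and E294+ alone, at 2.83, 2.14 and 2.04, also overlapped. E032+, named after its values were seen, was near 1 by itself, at 0.968, 0.852 and 1.20, and measured 0.249, 0.107 and 0.0885 before P017+. Against the cCRE alone, a baseline added after seeing the data, limma called 19 of 56 pairs lower (33.9%) and 3 higher (5.36%), where 26.7% and 40.4% of all pairs in the library were called lower and higher. The pair values are the same that the choice used, so this too is a description.

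The 3 pairs called above the cCRE alone all had P017 on the minus strand. Other pairs with P017- were called below their cCRE alone, among them E032+ (-3.59 on the log2 scale) and E268- (-3.45). E168- before P017- measured 0.368, 0.450 and 0.523, while E168- alone measured 0.0596, 0.0938 and 0.0912. E144- before P017- measured 0.328, 0.419 and 0.453, while E144- alone had 0.0951, 0.117 and 0.120. E156+ before P017- measured 0.594, 1.67 and 1.10, while E156+ alone had 0.376, 0.372 and 0.385. E156+ before P017- was not called without replicate 2 or without replicate 3 (limma adjusted p = 0.087 and 0.12), and the other cCREs' calls held without any 1 replicate. E168 lies 11.5 kb from P017, E156 92.1 kb and E144 166.1 kb, all between genes on the lower-coordinate side of Inhbb.

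**Figure D2:**
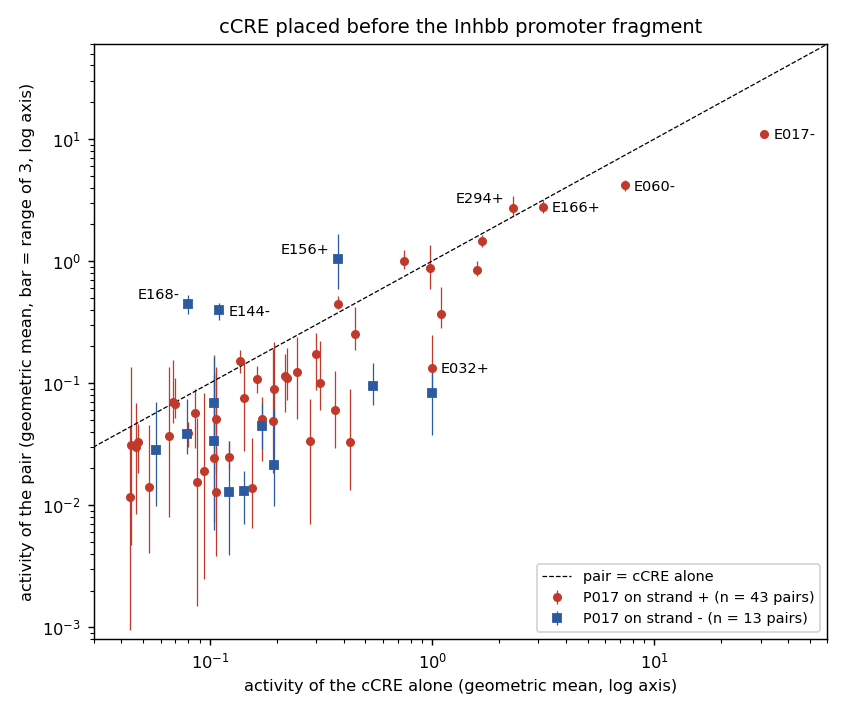
Activity of each cCRE placed before P017 (vertical, geometric mean; bars are the range of the 3 replicates) against the same cCRE alone (horizontal), both log axes, for 56 pairs with all replicates above 0. Most of the pairs lie under the dashed line of equality (48 of 56), and E168-, E144- and E156+ with P017 on the minus strand lie above it.

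The same cCREs were measured before other promoter fragments that were weak alone, here those with a geometric mean under 0.3 on the strand paired. The other strand could be active, as for P021-, P024- and P025-, whose plus strands had 2.33, 2.71 and 2.49 alone. Of these, P025- gave the highest weak pair with E060- and E166+, and P021- with E294+. E017- gave 11.1 with P017, within a range of 0.496 to 17.05 over 22 pairs with such fragments. E060- gave 4.18, within 0.771 to 8.89 over 24 pairs. E166+ gave 2.78, within 0.266 to 5.36 over 24 pairs, and E294+ gave 2.72, within 0.523 to 3.63 over 22 pairs. For each of these 4, P017 lay above the median of the weak fragments, which was 4.06, 2.72, 1.37 and 1.60. The 4 were named as the highest with P017, which favoured such a position beforehand, so nothing is read from it. E144- was different: its 0.397 with P017- exceeded all 22 weak fragments, whose highest was 0.252. E168- with P017-, at 0.442, lay above 25 of 26, with P020+ at 0.580 higher. Further down the ranking, P017 lay on both sides of the weak median. It was above for E244+ (0.153 against 0.0488) and below for E188+ (0.842 against 0.938) and E289- (0.0606 against 0.271). With E215-, at 0.0128, it lay below all 18 weak pairs, whose lowest was 0.0194. The fragments differ in barcodes and share the 3 replicates, and these positions were not tested.

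**Figure D3:**
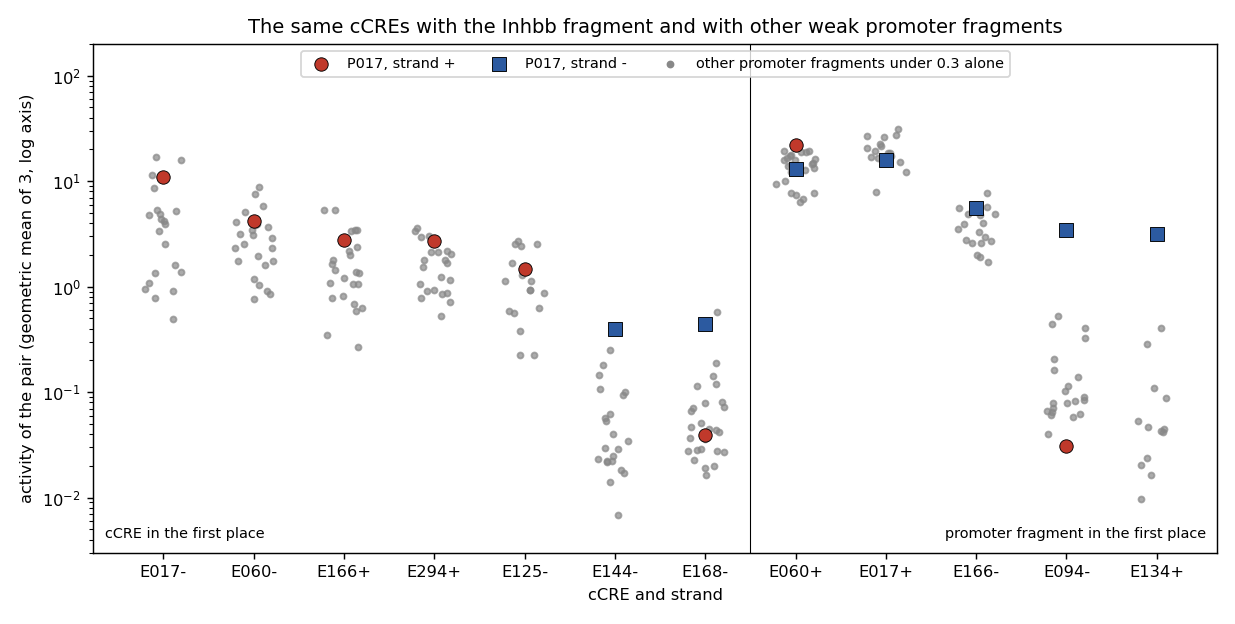
Activity of named cCREs paired with P017 (large symbols, by strand) and with other promoter fragments under 0.3 alone on the strand paired (grey). Values are geometric means of 3 replicates on a log axis, and cCREs stood first on the left and second on the right. P017 lies inside the grey range for E017, E060- and E166. It lies above all grey points on the plus strand for E060+ placed second (21.8) and on the minus strand for E144- placed first and for E094- and E134+ placed second.

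The cCREs nearest to P017 in the genome did not give a single level. E170, with its midpoint 1.33 kb away on the upstream side, was measured only behind P017, with a replicate at 0. E168 gave 0.0299, 0.0425 and 0.0480 before P017+ and the higher values above before P017-. E178 and E186, both inside Ralb at 59.3 and 76.6 kb, gave geometric means of 0.0190 and 0.0680 before P017+, and E185, 75.4 kb away in the same gene, gave 0.872. Over the 9 pairs within 100 kb, which held 6 cCREs, the median was 0.442, against 0.0306 for 14 pairs between 100 and 500 kb and 0.0702 for 33 pairs farther away. Within 100 kb, E156 entered 3 times and E168 2 times. The means per cCRE there were 2.78 (E166), 0.872 (E185), 0.367 (E156), 0.132 (E168), 0.0680 (E186) and 0.0190 (E178). Over all 56 pairs, level and distance had a Spearman's rho of 0.00, and the highest pairs of all came from 1111 and 774 kb. E301, E084 and E124, which with E017 and E060 were the 5 strongest cCREs over all promoters, were not measured with P017.

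The strand of P017 was compared behind a cCRE and the largest difference was that of E168. These are the pair values that the choice of P017 used, so strand differences behind a cCRE are a description, with no p-value. Of 6 cCREs measured before both strands of P017, limma called 2 (adjusted over 1694 such contrasts of all promoters, of which 50.5% were called). E168- gave 0.0299, 0.0425 and 0.0480 before P017+ and 0.368, 0.450 and 0.523 before P017-, with no overlap. The difference, plus less minus, was -3.49 ± 0.26 on the log2 scale (SE, n = 3 on each side). E268-, inside Steap3, went the other way, with 0.101, 0.154 and 0.0279 before P017+ against 0.0192, 0.00702 and 0.0165 before P017-. The difference was 2.54 ± 0.75. Every replicate before P017- lay below the lowest replicate of either empty vector. The call was lost with the replicate as a block, without replicate 1 and without replicate 2. E156+ differed by -1.22 ± 0.41 and was not called. For E075-, E032+ and E209- the differences were 0.18 ± 0.59, 0.69 ± 0.64 and 0.96 ± 0.81, and none was called.

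The strand of the cCRE before P017+ could be compared for 4 cCREs, and 2 were called, where 23.9% of 1349 such contrasts of all promoters were. This too describes values that the choice used. E156+ gave 0.414, 0.403 and 0.520 and E156- 0.0825, 0.112 and 0.138, a difference of 2.03 ± 0.26 on the log2 scale (SE). E209+ gave 0.227, 0.0873 and 0.258 and E209- 0.0196, 0.0237 and 0.0338, a difference of 2.78 ± 0.49. The replicates of the strands did not overlap for either cCRE. The other cCREs, E249 and E068, differed by -1.75 ± 0.50 and 3.36 ± 1.24 and were not called. Leaving out replicate 3 removed both calls, leaving out replicate 1 removed E209 and leaving out replicate 2 removed E156.

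With P017 in the first place, the cCRE stood next to the reporter and the level again rose with that of the cCRE alone. All replicates were above 0 for 46 of 69 pairs, with 33 cCREs, and geometric means ran from 0.0167 to 21.8 with a median of 0.0644. The correlation with the cCRE alone was r = 0.86 and rho = 0.74 across the 46 pairs. P017+ before E060+ measured 26.6, 21.98 and 17.8 and P017- before E017+ 17.1, 14.1 and 16.5, with E060+ alone at 16.4, 15.9 and 14.3 and E017+ alone at 14.9, 15.0 and 16.9. The first did not overlap its cCRE alone and the second did. Neither was called. P017+ before E060+ had a geometric mean of 21.8, above all 26 weak fragments before E060+, whose highest was 20.4.

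Some cCREs were lower behind P017 than alone and a few were higher. The choice of P017 names pairs in either place, so these pairs may have entered it. The calls and p-values below for P017 in the first place therefore describe these pairs, and nothing is read from them. Against the cCRE alone, limma called 10 of 46 pairs lower (21.7%) and 4 higher (8.70%). Over 4684 such pairs of all promoters, 18.8% were called lower and 32.1% higher. The median difference of the P017 pairs was -0.81 on the log2 scale, against 0.02 over the library. The share called lower was near that of all promoters, the share called higher was below it, and the difference in shares was not tested.

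The largest fall was of E094- behind P017+, from 0.534, 0.563 and 0.713 alone to 0.00597, 0.0226 and 0.220, a difference of -4.27 ± 1.25 on the log2 scale (SE, limma adjusted p = 0.030). Its replicates spread over an SD of 2.63 on the log2 scale, and the limma call was lost without replicate 1 or without replicate 2 (adjusted p = 0.10 and 0.14). Against the median of all pairs before E094-, those of P017 included, the difference was -2.51 ± 1.24 and was not called either (0.15). E138- behind P017- fell by 3.72 ± 0.35, from 0.393, 0.425 and 0.450 to 0.0508, 0.0312 and 0.0205 (limma adjusted p = 0.00031). E281- behind P017- fell by 3.32 ± 0.28, from 0.501, 0.453 and 0.562 to 0.0707, 0.0400 and 0.0456 (limma adjusted p = 0.00018). E228+ and E144- behind P017- fell by 2.37 ± 0.72 and 1.84 ± 0.25, with adjusted p-values of 0.034 and 0.0013 from limma. E228+ was not called with the replicate as a block (0.055), without replicate 2 or without replicate 3. E138 and E144 lie between genes, and E228 lies inside Cfap221. The median pair of other promoters before the same cCREs was itself low for most of these: 0.0888 for E138-, 0.192 for E281-, 0.0841 for E228+ and 0.0715 for E144-. As a fitted baseline, the median of all pairs before each cCRE was used, those of P017 included. Against it the differences were smaller, at -1.42 ± 0.37 for E138-, -1.78 ± 0.27 for E281-, -1.50 ± 0.75 for E228+ and -1.20 ± 0.26 for E144-. E228+ was not called (limma adjusted p = 0.15).

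The largest rise was of E134+, a cCRE between genes 112 kb from Gli2, a transcription factor gene of Hedgehog signalling. Alone it measured 0.102, 0.133 and 0.133, and behind P017- it measured 3.01, 3.09 and 3.46. The difference was 4.71 ± 0.21 on the log2 scale, 26.1-fold (SE, limma adjusted p = 3.5e-05). Over 19 pairs with other promoters before E134+, geometric means ran from 0.00968 to 0.410 with a median of 0.0537. Against the median of all pairs before E134+, that of P017 included, the difference was 5.17 ± 0.21 (limma adjusted p = 4.4e-05). Barcode numbers were not used, so whether few barcodes carry this level is unknown. The replicates share a plasmid pool, and their closeness and the p-values leave out differences between barcoded plasmids.

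E094-, inside Gli2, rose behind P017- to 3.62, 2.95 and 3.93, by 2.54 ± 0.23 over its level alone (SE, limma adjusted p = 0.00024). Over 30 pairs of other promoters before E094-, geometric means ran from 0.0402 to 2.22 with a median of 0.150, and P007+ of Nifk gave the highest. Against the median of all pairs before E094-, those of P017 included, the difference was 4.30 ± 0.21 (limma adjusted p = 5.5e-05). The same limit on barcodes holds for this pair. E241- behind P017- rose by 1.79 ± 0.28 over the cCRE alone (limma adjusted p = 0.0025), from 0.0877, 0.108 and 0.0928 to 0.319, 0.250 and 0.461. That pair stood at the common level of this cCRE, since the median over 29 pairs of other promoters was 0.437. The difference from the median of all its pairs, those of P017 included, was -0.35 ± 0.29. E166- rose by 0.54 ± 0.18, from 3.77, 3.64 and 3.95 to 5.75, 5.08 and 5.73 (limma adjusted p = 0.049, 0.067 with the replicate as a block, and 0.11 to 0.21 with 1 replicate left out).

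**Figure D4:**
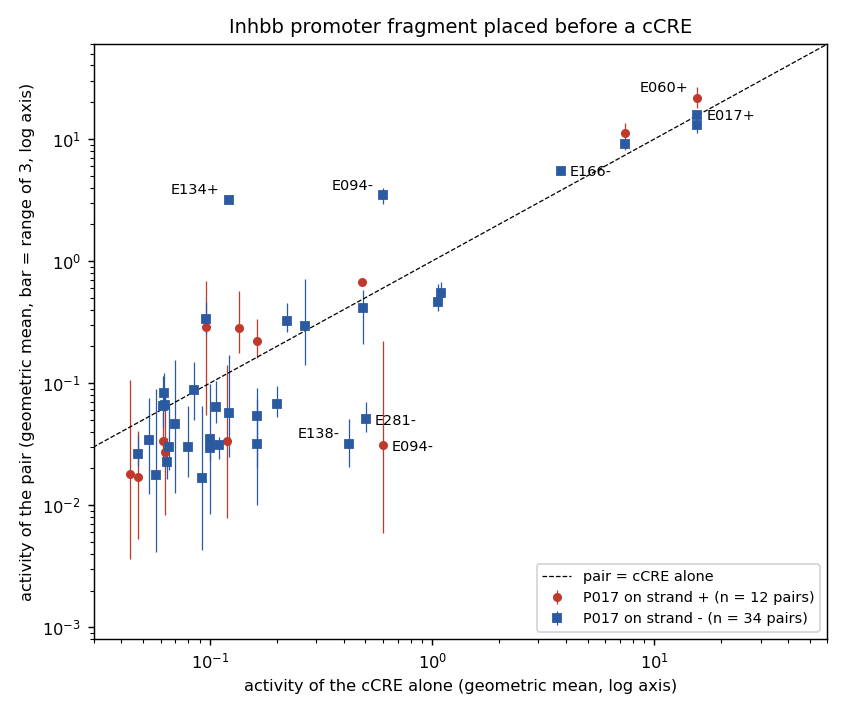
Activity of each pair with P017 before a cCRE (vertical, geometric mean; bars are the range of the 3 replicates) against the cCRE alone (horizontal), both log axes, for 46 pairs with all replicates above 0. E134+ and E094- behind P017 on the minus strand stand far above the dashed line of equality at 3.18 and 3.47, and E094- behind the plus strand stands far below it at 0.0310.

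E094- was therefore at 3.47 behind P017- and at 0.0310 behind P017+. The difference, plus less minus, was -6.81 ± 1.27 on the log2 scale (SE, limma adjusted p = 0.010), in a comparison of strands in the first place that was added after seeing the data. It was the only call among 8 cCREs measured behind both strands, where 31% of the 1329 such contrasts of all promoters were called. The replicates did not overlap. Without replicate 2 the adjusted p was 0.094. E060+ was higher behind P017+ than behind P017-, where it measured 15.3, 13.1 and 11.2, by 0.73 ± 0.25, and E156- by 2.05 ± 0.67, neither passing (limma adjusted p = 0.080 and 0.066).

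Pairs of 2 promoter fragments were few. Behind a second promoter, P017 was measured with all replicates above 0 in 6 of 13 pairs. P022+ of Ptpn4, a protein tyrosine phosphatase gene, before P017+ measured 4.04, 4.27 and 5.00, below P022+ alone at 6.74, 7.28 and 7.93. P019+ of Tmem185b before P017- measured 0.751, 0.682 and 1.49, far below the 7.94, 8.71 and 9.42 of P019+ alone. P022- before P017+ measured 0.351, 0.359 and 0.246, and P016+, from between genes 93.3 kb away, before P017+ 0.246, 0.0982 and 0.109. P020- and P016- before P017+ had geometric means of 0.0779 and 0.0435. Against P017 alone, limma called 4 of these 6 higher and 0 lower, where over 565 pairs of promoters 32.2% were called higher and 19.3% lower. The contrast belongs to the choice of P017 and is a description. P016+ before P017+ was not called with the replicate as a block (limma adjusted p = 0.10) or without any 1 replicate, and P022- was not called without replicate 2.

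Before another promoter, P017 was followed in 9 of 12 pairs with values above 0, and limma called 3 lower (33.3%) and 1 higher (11.1%) than the second promoter alone, against 19.3% and 32.2% of the 565 such pairs of all promoters. These pairs may also have entered the choice of P017, so their calls and p-values are a description. P012-, from inside Tfcp2l1 just past its RefSeq start, fell by 2.67 ± 0.16 on the log2 scale behind P017-. It went from 0.152, 0.156 and 0.159 to 0.0245, 0.0282 and 0.0211 (SE, limma adjusted p = 9.4e-05). Both strands of P013, the Gli2 fragment, fell, P013+ behind P017- by 2.66 ± 0.66 and P013- behind P017+ by 2.35 ± 0.26 (limma adjusted p = 0.019 and 0.00090). The P013+ call was lost without replicate 2 or without replicate 3 (0.086 and 0.059). P024- of Tmem177 rose behind P017- by 1.60 ± 0.40, from 0.167, 0.180 and 0.215 to 0.405, 0.432 and 1.02 (limma adjusted p = 0.019). The highest level was that of P018- of Ralb behind P017-, at 0.429, 0.889 and 1.04, which overlapped P018- alone. Without replicate 1 or without replicate 2 the rise of P024- was no longer called.

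The order of P017 and a cCRE could be compared for 6 pairs of the same strands, 3 higher with the cCRE before P017 and 3 higher with it behind. E060- with P017+ was higher behind P017, at 13.4, 13.1 and 8.17, than before it, at 4.23, 4.63 and 3.74, without overlap. E144- with P017- was 0.328, 0.419 and 0.453 before P017 and 0.0365, 0.0239 and 0.0336 behind it, also without overlap. E156- with P017+ was the third pair without overlap, with geometric means of 0.108 before and 0.222 behind. Over the 6, the median was -0.18 ± 0.74 on the log2 scale (SD over 3 replicates), before less behind, so no common direction was resolved. Over 2234 such pairs of all promoters the median was 0.25.

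The profile of P017 over cCREs was most like those of P016, P012 and P024. The likeness was Spearman's rho of log2 activity relative to each promoter's median pair, over the shared cCREs and strands. It was 0.72 for P016 (50 shared, r = 0.83), 0.71 for P012 (49 shared, r = 0.82) and 0.70 for P024 (49 shared, r = 0.77). The lowest of 18 fragments compared was P011, which spans the start of Tfcp2l1, with 0.43 over 27 shared. P016 and P012 were weak alone, at 0.0903 to 0.156 over both strands, while P024 was at 2.71 on the plus strand. These values describe cCREs measured in the same 3 replicates, and these 3 changed places when a replicate was left out.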

How the data were processed

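The authors' deposited Upstream activity gives, per construct and biological replicate, a linear ratio of reporter RNA (cDNA) over plasmid input (pDNA). The submitters' processing notes name Bowtie2 and mm10; barcode filters and scaling are not given in the sources used here. Only rows of the Tfcp2l1 library were used, in its 3 cDNA replicates. Sequences of whole fragments and of cCREs were not used here. Of the value columns, 3 held means over replicates and were not given to a sample. The members and lists were chosen with earlier results of these data known.

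Activities were taken as log2, and rows with a replicate at 0 were left out of fits and geometric means. Each pair was fitted with limma 3.58.1 (R 4.3.3), comparing its 3 values with the 3 of the fragment alone by empirical Bayes variances; p-values were Benjamini-Hochberg adjusted over all such rows of the library and called at 0.05; the code was tested on simulated data. Strand tests set the 3 values of each strand against each other. The replicates are labelled biological but share a plasmid pool, so p-values leave out differences between barcoded plasmids. Values with the same number came from the same transfected sample and so are paired; their deviations from the means correlated at 0.05 to 0.22 over 21 checks, and a fit with the replicate as a block was an alternative.

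Named cCREs before P017 were the 12 highest, the 5 lowest, the 6 nearest and E017, E060, E301 and E166; named tests were the 5 largest called in each direction; named promoter pairs were the 5 highest and 3 lowest in each order, of which those without a sentence of their own are covered by the counts; named promoters of like profile were the 3 with the highest rho, over at least 20 shared cCREs. Gene overlaps came from RefSeq gene spans (GRCm38.p6), which do not separate exons from introns here. Promoter windows came from RefSeq, and 11 of 26 promoter fragments held such a window whole. Python 3.11.15, numpy 2.4.6, pandas 2.3.3, scipy 1.17.1 and matplotlib 3.10.9 were used.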

Additional observations from a re-analysis of the deposited data

How the results depend on the processing

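Counts of calls for P017 pairs were recomputed under each alternative, and those within 1.5 times of the count given are not listed. Pairing P017+ and P017- alone by replicate, added after seeing the data, gave p = 0.25 against 0.30 in exact permutation tests. With the replicate as a block, 1 of 6 strand contrasts of P017 behind a cCRE was called in place of 2, and E268- was the call lost; the block also ended the calls of E209+ and E068+ against P017 alone (adjusted p = 0.059 and 0.055 from limma) and those given beside their values, and moved no other count by over 1.5 times. With a variance trend on intensity, no pair was called lower than P017 alone (0 in place of 1), 4 of 4 cCRE strand contrasts were called, 7 pairs of P017 before a cCRE were called higher in place of 4, and 3 strand contrasts of P017 in the first place in place of 1. With the median pair as baseline in place of the fragment alone, 3 pairs were called lower before P017, 2 pairs of P017 before a cCRE higher, and 1 pair of another promoter before P017 higher in place of 4; E241- behind P017- turned to -0.35 and P016+ before P017+ to -0.12. Behind another fragment, that baseline is the median of the P017 pairs themselves: P016+ is the middle of 5 pairs and P019+ before P017- is its only pair, so those lost calls and that sign follow from its construction. With zeros kept and a pseudocount of 0.01, 17 pairs of P017 before a cCRE were called lower in place of 10, and 1 pair of another promoter before P017 lower in place of 0. The median effect of order turned from -0.18 to 0.030 with zeros kept and was -1.04 with P017 on the plus strand only. The rho with P016 was 0.84 with P017 on the plus strand only and 0.68 without the 5 strongest cCREs. Leaving out each replicate in turn gave ranges of 0 to 1 for pairs called lower than P017 alone, 1 to 2 for P017 strand contrasts behind a cCRE, 0 to 1 for cCRE strand contrasts, 0 to 1 for pairs called higher with P017 before another promoter, 2 to 4 for another promoter before P017, -0.77 to -0.25 for the median effect of order, 0 to 1 for P017 strand contrasts in the first place, and 0.68 to 0.70 for the rho with P016. The calls of E134+ and of E094- behind P017-, and of E168- between P017 strands, held in each of the alternatives run for them. These alternatives reuse the same replicates and values that the choice of P017 used or may have used, so nothing is read from the calls holding. None of these alternatives used barcode numbers. The cause of these shifts was not tested. Replicates at 0 and the wide spread under 0.2 limit what the low pairs can show.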
